A study of Mus musculus with 4 samples.

Results

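Chemokines, interleukins and a few further cytokines, with the chains of their receptors, were followed in 4 mouse melanocyte lines. The group held every gene whose symbol begins with Ccl, Cxcl, Ccr, Cxcr or Il and a digit, together with Csf1, Csf2, Csf3, Lif, Mif, Osmr and Tnf. It came to 126 of the 18193 genes measured. Where a gene had several probe sets, the one with the largest average on the log2 scale stood for it. Detection meant that at least 1 line reached an intensity of 32. By this rule 22 of the 126 genes were detected, or 17.5%, against 51.8% of all genes.

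The study asked what active β-catenin changes in pigment cells, and hybridised RNA of each line to 1 Affymetrix array. All lines were immortalized cultures from the skin of C57BL/6J pups aged 3 days, kept in Ham's F12 with 10% serum and 200 nM TPA (a phorbol ester that activates protein kinase C), and harvested at 80% confluency. Fibroblasts had been selected against with G418 when the lines were made. The genotype bcat* stands for a transgene that expresses a stable, transcriptionally active β-catenin in the melanocyte lineage, and WT lines lack it. Article and labels both gave line 9v (male) as WT and line 10d (male) as bcat*. Line 13d (female) was labelled bcat* and line 14d (female) was labelled WT, while the article's methods give 13d as WT and 14d as bcat*. Neither reading was taken as true here, so values are given by line and genotypes are compared under both readings. The article describes the mice as male, whereas the labels give 13d and 14d as female. Xist had an intensity of 4 in both male lines and of 1768 or more in both female lines, and Eif2s3y, Kdm5d and Uty ran the other way, as the labelled sexes would have it. Ctnnb1, the gene of β-catenin, lay between 30254 and 34368 on its brightest probe set. Whether its probe sets read the transgene, the endogenous gene or both was not tested.

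The arrays had median intensities of 7 or 8 and between 35.8% and 36.1% of probe sets at the detection level. All 8 melanocyte markers (Tyr, Tyrp1, Dct, Pmel, Mlana, Mitf, Sox10 and Kit) were detected in every line. Of 7 leukocyte markers measured, only Csf1r reached the detection level, with 34 to 51, and Ptprc (CD45) stayed at 4 or 5; the summed leukocyte list ranged from 91 to 109. Of 7 fibroblast markers, Col1a2 (175 in 9v, 80 in 10d, 24 in 13d and 17 in 14d) and Postn (38, 34, 61 and 20) were detected, with sums of 265, 160, 132 and 86, and Col3a1 and Dcn were at 8 or less. Of 6 keratinocyte markers only Krt10 was detected, with sums from 135 to 297, and none of the 5 endothelial or 6 mast cell markers was. The fibroblast sum was highest in 9v and lowest in 14d, and its part in the results was not tested.

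Chemokines are small secreted proteins that steer cells, leukocytes above all, through receptors of the G protein-coupled kind. Most interleukins act through paired receptor chains on JAK kinases and STAT factors, whereas the interleukin-1 and interleukin-17 families act through adaptors on NF-κB. In skin these signals pass between keratinocytes, fibroblasts, immune cells and melanocytes.

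Few of these genes were detected in any family. Of 31 chemokine ligands 5 were detected (Cxcl10, Cxcl15, Ccl6, Ccl9 and Ccl25), and of 15 chemokine receptors only Cxcr3. Interleukin receptor chains were detected more often, with 10 of 37, than interleukins and related genes, with 4 of 37. Of the other 6 cytokines Mif and Csf1 were detected. Of the 104 genes that were not detected, 101 had no value above 16, among them the inflammatory cytokines Tnf, Il6, Il1a and Il1b, with 9 or less in every line. Cxcl1 and Cxcl2, ligands for neutrophils, stayed at 7 or less. Just outside the detection level were Cxcl14, with 31 in 9v, 10d and 14d and 29 in 13d, and Ccl2, with 6 in 9v, 26 in 10d, 21 in 13d and 29 in 14d. Just inside it were Il4ra, whose highest value was 34, and Il1r1, with 32 to 37 in the 4 lines. Detection in all 4 lines held for 12 genes, or 9.52% of the 126 against 45.8% of all genes. That was 54.5% of the 22 detected genes, against 88.4% of all detected genes, and detection in exactly 1 line for 3 of 22, or 13.6%, against 4.2%.

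**Figure D1:**
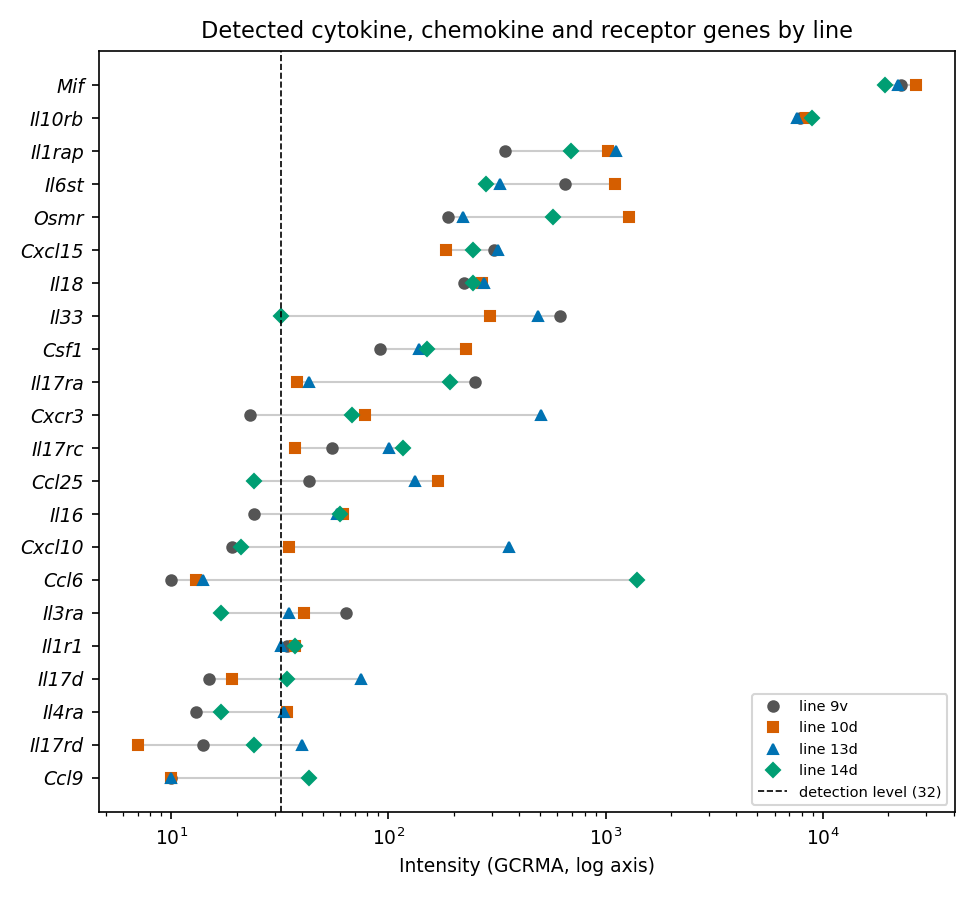
Intensity (log axis) of the 22 detected genes, with a symbol for each line, 1 array per line and therefore no error bars; the dashed line is the detection level of 32. Ccl6 stands apart in 14d, Cxcl10 and Cxcr3 in 13d and, on the low side, Il33 in 14d.

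Cxcl10, a chemokine that interferons induce and that attracts T cells, was high in a single line. Its intensity was 19 in 9v, 35 in 10d, 358 in 13d and 21 in 14d. Line 13d was thus 10.2-fold above the next line, and at least 11.2-fold above the lines under the detection level. Cxcr3, the receptor of Cxcl10, was highest in the same line, with 23 in 9v, 78 in 10d, 507 in 13d and 68 in 14d. Line 13d exceeded the next line 6.5-fold. Such a lead, of 4-fold or more over the next line, was found in 13d for these 2 of the 22 genes and for 0.563% of all detected genes, a measure added after the values were seen. Lines 9v and 10d led by as much in none of the 22, against 0.414% and 0.435% of all. The other ligands of Cxcr3 were not detected, with Cxcl9 at 6 and Cxcl11 at 8 in every line. Ackr3, an atypical chemokine receptor, was also highest in 13d, with 1280 in 9v, 583 in 10d, 3714 in 13d and 1683 in 14d. Cxcl10 and Cxcr3 were each read on 1 probe set.

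Ccl6, a CC chemokine of rodents known from myeloid cells, was detected in 14d alone. Its intensity was 10 in 9v, 13 in 10d, 14 in 13d and 1392 in 14d, at least 43.5-fold above the other lines. Its second probe set gave 7, 7, 10 and 295. It was the 1 gene of the 22 in which 14d led the next line by 4-fold or more, as it did in 0.701% of all detected genes. Ccl9, its neighbour in the RefSeq gene order and a related chemokine, was at 10 in 9v, 10d and 13d and at 43 in 14d, at least 1.34-fold higher and close to the detection level. The other chemokines beside them were not detected, with Ccl5 at 4 and Ccl4 at 3 in every line and Ccl3 at 5 or 6. The leukocyte sum was 108 in 9v, 96 in 10d, 91 in 13d and 109 in 14d, with Ptprc at 4 or 5. Csf1r, the only leukocyte marker detected, was 49, 40, 34 and 51 in this order of lines. Ccr1, a receptor of this family, was at 9 in every line.

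The 250 bases before the RefSeq start of these 3 chemokine genes are shown because they hold, or lack, letters of factors that act on inflammatory genes. They are on GRCm38.p6, minus strand, written 5′ to 3′, at chr5:92348890-92349139 for Cxcl10, chr11:83593088-83593337 for Ccl6 and chr11:83578637-83578886 for Ccl9. Capitals mark matches to a narrow form of the kappa B motif (GGGA and TTCC with any 2 bases between them) or to TGANTCA (AP-1, also the phorbol ester element). Wider forms of the kappa B motif and the letters of interferon factors were not searched, so lower case does not show that they are absent.
Cxcl10: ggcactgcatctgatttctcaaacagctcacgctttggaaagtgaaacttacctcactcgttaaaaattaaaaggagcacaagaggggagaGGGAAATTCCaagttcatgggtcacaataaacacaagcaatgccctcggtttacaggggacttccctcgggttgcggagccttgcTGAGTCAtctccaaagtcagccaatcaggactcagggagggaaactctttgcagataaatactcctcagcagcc
Ccl6: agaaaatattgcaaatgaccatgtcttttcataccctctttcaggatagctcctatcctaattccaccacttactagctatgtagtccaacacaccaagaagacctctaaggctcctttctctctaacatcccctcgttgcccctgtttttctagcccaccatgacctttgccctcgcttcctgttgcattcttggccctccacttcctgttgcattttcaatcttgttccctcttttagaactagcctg
Ccl9: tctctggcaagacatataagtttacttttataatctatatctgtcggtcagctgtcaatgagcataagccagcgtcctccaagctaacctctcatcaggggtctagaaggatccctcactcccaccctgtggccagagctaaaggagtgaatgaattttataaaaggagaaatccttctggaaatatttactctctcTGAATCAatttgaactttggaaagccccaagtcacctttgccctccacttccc
Of the letters searched, Cxcl10 held GGGAAATTCC 159 bases and TGAGTCA 74 bases before the start. Its sequence also holds GGGGACTTCC, unmarked because it has G in place of the A of GGGA. Ccl9 held TGAATCA, whose middle base is neither G nor C, 53 bases before the start. Ccl6 had no match to either search. The RefSeq table had 20 of the 22 detected genes, with 25 promoters. Searched on both strands, kappa B letters were upstream of 3 of the 20 genes (Csf1, Cxcl10 and Il16) and of 1.21% of all 32851 promoters. AP-1 letters, with any middle base, were upstream of 3 (Ccl9, Cxcl10 and Il16) against 6.75%. CTTTGNT, a loose form of the Tcf/Lef letters through which β-catenin acts, was upstream of 5 (Cxcl15, Il16, Il17rc, Il33 and Mif) against 16%. The stricter letters have A or T at the open base, as in Cxcl15 and Mif (AACAAAG) and Il17rc (CTTTGTT). Il16 (AGCAAAG) and Il33 (AGCAAAG and ACCAAAG) had G or C there. Some genes have several promoters, so the share of genes is not on the same base as the share of promoters, and a match describes letters only.

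Ccl25, a chemokine known from thymus and gut, was higher in 10d and 13d than in 9v and 14d. Its intensity was 43 in 9v, 170 in 10d, 132 in 13d and 24 in 14d. That was 3.95-fold higher in 10d than in 9v, and at least 4.12-fold higher in 13d than in 14d. A second probe set lay far under the detection level, with 4, 8, 6 and 4, and with the mean of both the log2 difference of 10d and 9v was 0.20. Its receptor Ccr9 was not detected, with 17 to 19. Cxcl15, a CXC chemokine known from lung, differed little, with 307 in 9v, 185 in 10d, 320 in 13d and 244 in 14d. A second Cxcl15 probe set, under the detection level in every line, ran differently, with 18, 27, 17 and 21.

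Of the interleukin-1 family, Il33, a nuclear cytokine released as an alarm signal by damaged cells, was low in a single line. Its intensity was 620 in 9v, 294 in 10d, 488 in 13d and 32 in 14d. Line 14d, at the detection level itself, was 9.19-fold below the next line and 19.4-fold below 9v. It was the 1 gene of the 22 in which 14d fell short of the next line by 4-fold or more, against 0.648% of all detected genes. None of the 22 had such a gap in 9v, 10d or 13d, against 0.276%, 0.499% and 0.106% of all. Il1rap, the accessory chain shared by the interleukin-1 and interleukin-33 receptors, ran differently, with 346 in 9v, 1031 in 10d, 1114 in 13d and 690 in 14d, 2.98-fold higher in 10d than in 9v. Its second probe set gave 228, 572, 693 and 346 in this order of lines. One further probe set gave 75, 199, 158 and 787, so that the probe sets agreed on 9v as lowest but not on the highest line. Il1r1, the signalling receptor of interleukin-1, was near the detection level throughout. Il18 was nearly level, with 224 in 9v, 270 in 10d, 275 in 13d and 244 in 14d, and its receptor chains Il18r1 and Il18rap were at 5 or less. Casp1, the protease that matures interleukin-18, was not level, with 22 in 9v, 337 in 10d, 3221 in 13d and 22 in 14d, a range of at least 101-fold.

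Of the receptors that signal with gp130, Osmr, the oncostatin M receptor chain, was highest in 10d. Its intensity was 189 in 9v, 1287 in 10d, 220 in 13d and 571 in 14d, 6.81-fold higher in 10d than in 9v and 2.6-fold higher in 14d than in 13d. A second probe set was detected in 10d only, at 39, with 5 in the other lines. Il6st, which encodes gp130, was also highest in 10d, with 652 in 9v, 1102 in 10d, 327 in 13d and 281 in 14d. Its other 3 detected probe sets also had their highest value in 10d (506, 562 and 214). Lifr, the partner of gp130 for LIF, was highest in 13d instead, with 53 in 9v, 28 in 10d, 241 in 13d and 99 in 14d. The ligands Osm, Lif and Il6 were not detected.

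Of the interleukin-17 receptors, Il17ra, the common chain, was lower in 10d and 13d. Its intensity was 250 in 9v, 38 in 10d, 43 in 13d and 193 in 14d, 6.58-fold lower in 10d than in 9v and 4.49-fold higher in 14d than in 13d. A second, dimmer probe set gave 37, 6, 6 and 14. Il17rc, its partner chain, did not follow, with 55 in 9v, 37 in 10d, 101 in 13d and 117 in 14d. Il17rd reached the detection level in 13d alone (14 in 9v, 7 in 10d, 40 in 13d and 24 in 14d). Il17d, a ligand of the family, was detected in both female lines, with 75 in 13d and 34 in 14d against 15 in 9v and 19 in 10d. It was read on a probe set of a type that may cross-hybridize, and its other probe set was at 4 in every line.

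Further cytokines and receptor chains were detected. Mif, macrophage migration inhibitory factor, was between 19250 in 14d and 26817 in 10d. Il10rb, a chain shared by the interleukin-10 and interleukin-22 receptors, was between 7582 in 13d and 8931 in 14d, while its partners Il10ra, Il22ra1 and Il20ra were at 7 or less. Csf1, the growth factor of macrophages, was 92 in 9v, 228 in 10d, 138 in 13d and 150 in 14d. It was 2.48-fold higher in 10d than in 9v. The other Csf1 probe sets were at 15 or less in every line. Il16, a chemoattractant for cells that carry CD4, was 24 in 9v, 62 in 10d, 58 in 13d and 60 in 14d. A second Il16 probe set, under the detection level in every line, gave 6, 6, 19 and 24. Il3ra, a chain of the interleukin-3 receptor, was 64 in 9v, 41 in 10d, 35 in 13d and 17 in 14d. Il4ra, a chain of the interleukin-4 and interleukin-13 receptors, was 13 in 9v, 34 in 10d, 33 in 13d and 17 in 14d. All values of Il3ra, Il4ra and Il16 were at most 64, where rounding to whole numbers and background weigh more.

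Between 10d and 9v, the lines whose genotype is not in doubt, 18 of the 22 genes were detected in at least 1 line. Of these, 5 were at least 2-fold higher in 10d (Osmr, Ccl25, Il1rap, Csf1 and Cxcr3), or 27.8%, against 7.85% of all genes. Lower by 2-fold or more were 2 (Il17ra and Il33), or 11.1%, against 10%. Il33 was 2.11-fold lower, and Cxcr3, under the detection level in 9v, at least 2.44-fold higher. The median log2 difference was 0.18 over the 18 genes and 0.00 over all genes. Each genotype is 1 array here, so these differences have no replicate check. With the mean of all probe sets, undetected ones included, the count of higher genes was 2 (Osmr, with a log2 difference of 1.07, and Cxcr3), as Il1rap (0.86) and Ccl25 (0.20) no longer reached 2-fold and Csf1 was not detected, and the difference of Il17ra was -1.59. At a detection level of 64 that of Cxcr3 was 0.29, and with each array centred on its median Il33 no longer reached 2-fold.

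Across the 4 lines, 7 of the 22 genes had a range of 4-fold or more (Ccl6, Il33, Cxcr3, Cxcl10, Osmr, Il17ra and Ccl25), or 31.8%, against 11.7% of all detected genes. Among the 12 genes detected in all lines the count was 3 (Il33, Osmr and Il17ra), or 25%, against 7.88%. The median range was 2.41-fold over the 22 genes and 1.79-fold over all detected genes, and 2.8-fold against 1.75-fold for genes detected in all lines. Lines 9v and 10d differed by 2-fold in 7 of 18 genes, or 38.9%, against 17.9% of all genes. Lines 13d and 14d differed by as much in 8 of 22 genes, or 36.4%, against 19.7%. There, 5 genes were higher in 13d (Il33, Cxcl10, Cxcr3, Ccl25 and Il17d), or 22.7%, against 11% of all, and 3 in 14d (Ccl6, Il17ra and Osmr), or 13.6%, against 8.73%. The other 4 pairs of lines, in a view added after the values were seen, gave 30% (9v and 13d), 36.8% (9v and 14d), 30% (10d and 13d) and 33.3% (10d and 14d) of the group, against 13%, 15.4%, 14.8% and 23.9% of all genes. No pair of lines, of the same or of different genotype under either reading, had a smaller share in the group than over all genes. The pairs share lines and are not independent of each other.

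**Figure D2:**
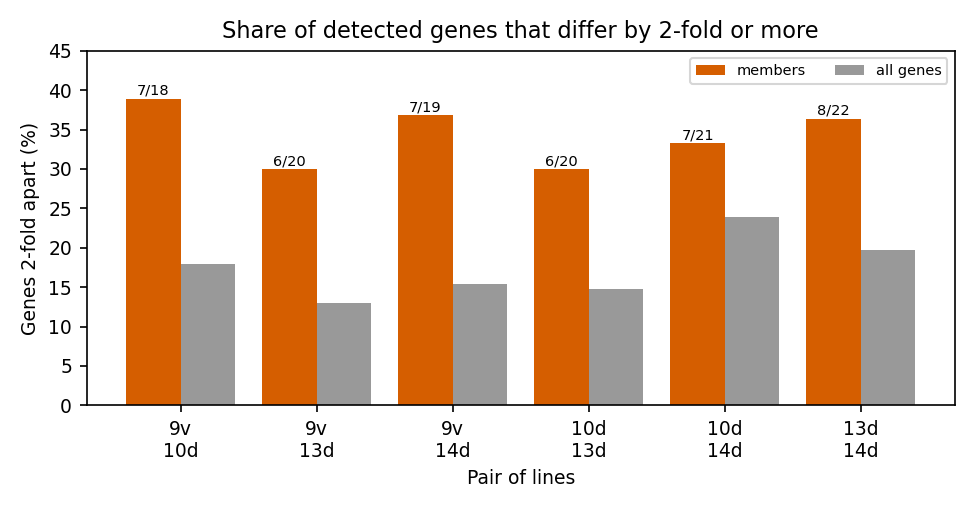
Share (%, from 0) of detected genes that differ by 2-fold or more in each of the 6 pairs of lines, for the cytokine group (orange, with counts) and for all genes (grey). The orange bars lie between 30% and 38.9%, the grey between 13% and 23.9%.

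With the genotypes as labelled (10d and 13d against 9v and 14d, 2 lines each), limma called 0 of 9415 detected genes at an adjusted p under 0.05, higher (0%) or lower (0%). At an unadjusted p under 0.05 it gave 298 higher genes (3.17%) and 441 lower genes (4.68%), with 1 of the 22 genes on each side. The higher one was Ccl25, with a log2 difference of 2.22 ± 0.48 (SE, n = 2 and 2; limma adjusted p = 0.497). The lower one was Il17ra, with -2.44 ± 0.36 (limma adjusted p = 0.418). The groups did not overlap for 6 higher genes (Ccl25, Cxcl10, Cxcr3, Il18, Il1rap and Il4ra), or 27.3%, against 19.1% of all genes, and for 1 lower gene (Il17ra), or 4.55%, against 20.1%.

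With the genotypes as in the article (10d and 14d against 9v and 13d), limma again called 0 of 9415 genes in either direction (0%). At an unadjusted p under 0.05 it gave 113 higher genes (1.2%) and 239 lower genes (2.54%), with 1 and 0 of the 22 genes. The higher one was Osmr, with a log2 difference of 2.07 ± 0.49 (SE, n = 2 and 2; limma adjusted p = 0.970). Il33 had a log2 difference of -2.50 ± 1.16 (limma adjusted p = 0.970). The groups did not overlap for 5 higher genes (Csf1, Il10rb, Il16, Il1r1 and Osmr), or 22.7%, against 16.5%, and for 2 lower genes (Cxcl15 and Il33), or 9.09%, against 14.5%. Both readings rest on the same 4 arrays and differ in where 13d and 14d stand. The difference under 1 reading thus counts as spread in the fit of the other, and 0 calls do not show that no gene differs. Under the labels, Il33 had a difference of 1.43 ± 1.51, which was -0.71 without 14d, and Osmr of 0.70 ± 1.06, which was -0.58 without 10d and -0.10 without 9v. Under the article's reading, Ccl25 had -0.24 ± 1.20 and Il17ra -0.28 ± 1.26. Among other genes, Il33, Ccl6, Ccl25, Cxcl10 and Cxcr3 had opposite signs in the 2 readings. The median difference over the 22 genes was 0.35 under the labels and 0.03 under the article's reading, against 0.02 and 0.01 over all detected genes.

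**Figure D3:**
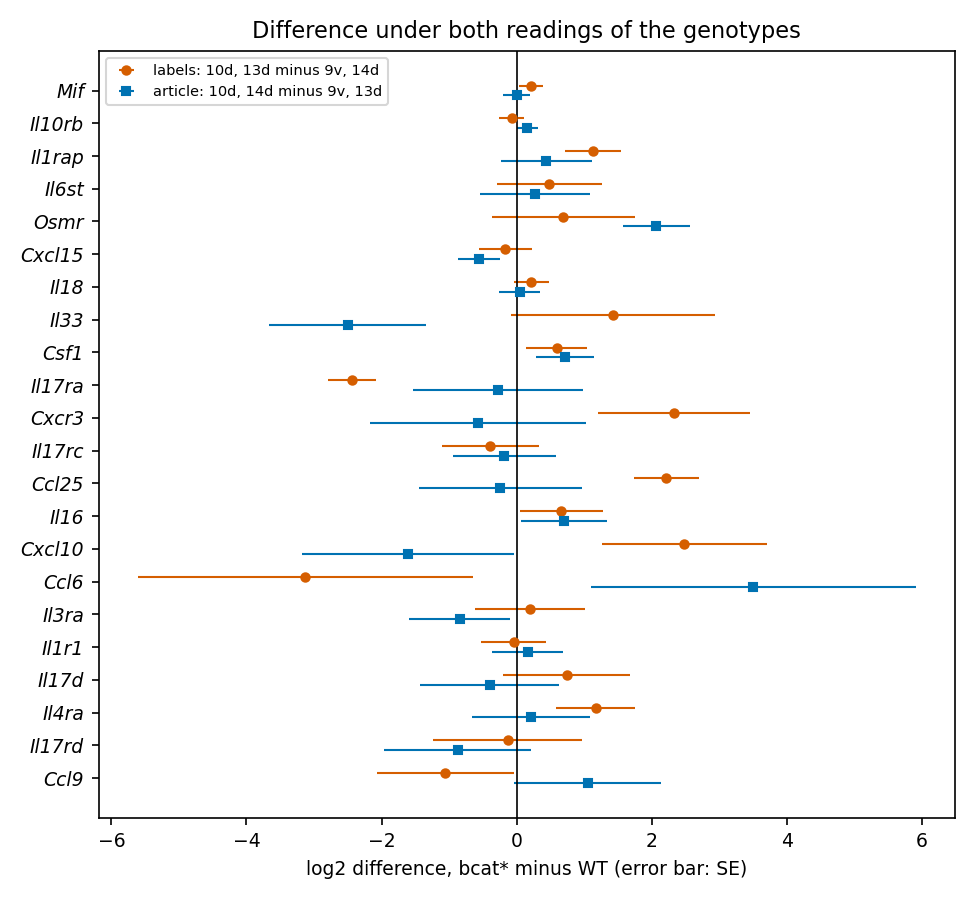
Difference between bcat* and WT lines (log2, horizontal axis; bars are the SE of the limma fit, 2 lines a side) for the 22 genes, with genotypes as labelled (orange) and as in the article (blue). Il17ra and Ccl25 lie far from 0 with small bars as labelled, Osmr as in the article, and Ccl6, Il33 and Cxcl10 change sign.

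Of 81 signalling genes listed (receptors and ligands outside the group, JAK, STAT and SOCS genes, adaptors and NF-κB genes), 75 were measured, 51 were detected, and limma called 0 of them under either reading. In 10d or 9v 49 were detected, with 7 at least 2-fold higher in 10d, 4 lower and a median log2 difference of -0.01. Besides Casp1, the higher genes were Tslp, a cytokine of epithelia, with 21 in 9v, 230 in 10d, 44 in 13d and 160 in 14d, and Stat2, a factor of the interferon response, with 15, 159, 56 and 8. Further higher genes were Myd88, the adaptor of interleukin-1 receptors, with 85, 315, 200 and 174, and Traf6, the ubiquitin ligase after it, with 49, 128, 74 and 36. Nfkbib, an inhibitor of NF-κB (412, 1147, 680 and 629), and Nfkbiz, a related gene (40, 101, 222 and 270), completed them. The lower genes were Jak1, a kinase of many cytokine receptors, with 1410, 584, 1060 and 907, and Socs2, a feedback inhibitor, with 311, 105, 78 and 492, beside Ackr3 and Cntfr, a receptor chain for CNTF (152, 18, 20 and 15). Of the 49 genes, 14.3% were higher and 8.16% lower, against 7.85% and 10% of all genes. A range of 4-fold or more was found for 10 of the 51, or 19.6%, against 11.7%. Crlf2, the receptor chain of Tslp, had 811, 627, 700 and 3131, and its partner Il7r was at 6 or less. Crlf2 and Lifr were named after their values were seen.

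**Figure D4:**
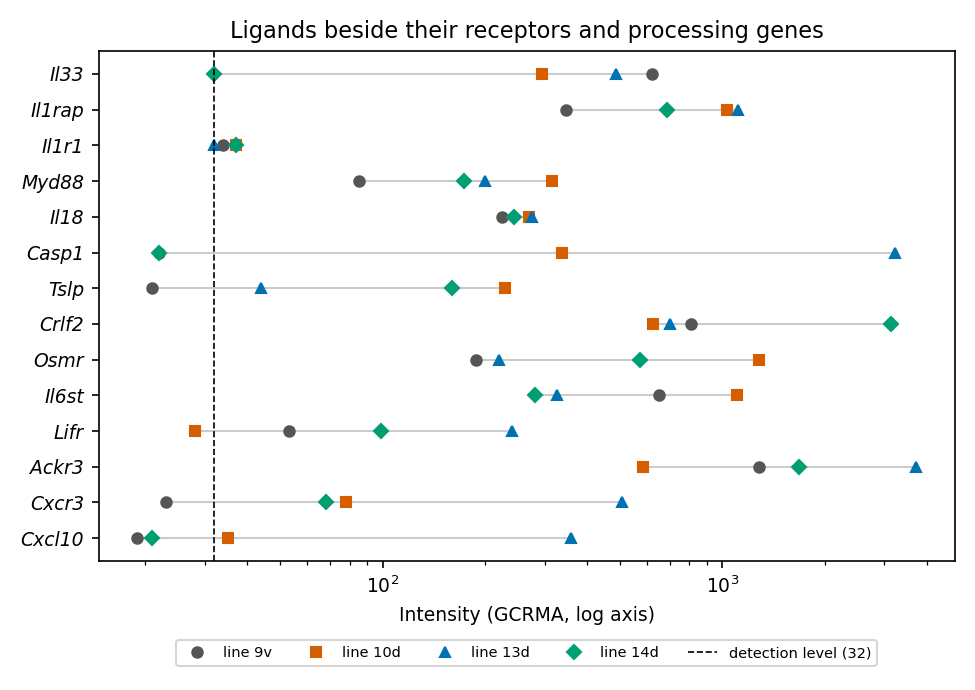
Intensity (log axis) of ligands, receptor chains and processing genes by line, 1 array per line and therefore no error bars; the dashed line is the detection level of 32. Casp1, Cxcl10, Cxcr3 and Ackr3 had their highest value in 13d, Crlf2 in 14d, and Osmr, Il6st and Tslp in 10d.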

How the data were processed

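Each of 4 melanocyte lines gave 1 Affymetrix array. For every probe set the authors deposited an intensity; the processing notes name GCRMA (background correction by probe sequence, normalization between arrays), and its version is not given in the sources used here. That the whole-number values are linear was read from them, and log2 was taken here. Dim values are coarse because they were rounded, and 1 array a line limits the precision.

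Of 45037 probe sets, 34945 were listed with 1 gene in the platform annotation, 932 with several and 9160 were not listed; only the first were named. Of several probe sets of a gene, that with the largest average log2 was used. For folds, ranges and counts of 2-fold or 4-fold differences, values were raised to the detection level of 32, so that a fold against an undetected line is a bound. Genotypes were compared on unraised log2 values with limma (lmFit, eBayes with an intensity trend) and Benjamini-Hochberg adjustment over 9415 detected genes. The fit was first run on simulated data with independent noise. That run checked the sign and size of differences and not the power in these arrays. The residual spread is that between lines. In each fit it holds the difference between the sexes and the genotype difference under the other reading. The members and lists were chosen with earlier results of these data known. All detected members were named, and signalling genes that differed by 2-fold between 10d and 9v or passed the test, with exceptions stated. Promoter sequences and gene order come from RefSeq tables of GRCm38.p6; the files name no build. Alternatives were other probe set summaries, normalizations, detection levels, fold thresholds and fits. R 4.3.3, limma 3.58.1, Python 3.11.15, NumPy 2.4.6, pandas 2.3.3 and matplotlib 3.10.9 were used.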

Additional observations from a re-analysis of the deposited data

Results flagged for a closer look

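Taking the labelled genotypes within each sex, 2 genes differed by 2-fold or more in both sexes and in opposite directions. Il33 had a log2 difference of -1.08 for 10d minus 9v (male) and of 3.93 for 13d minus 14d (female). Osmr had 2.77 for 10d minus 9v and -1.38 for 13d minus 14d. Each sex holds 1 line per genotype, and the difference between the sexes was not tested. With the genotypes as in the article, the sign of the female difference turns, and both sexes then go the same way for both genes. The reverse held for Ccl25 (1.98 in males and at least 2.04 in females, as labelled), Il17ra (-2.72 and -2.17) and Cxcr3 (at least 1.29 and 2.90). As labelled, both sexes go the same way for these genes, and under the article's reading they go opposite ways.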

How the results depend on the processing

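No paired analysis by replicate number was possible because the labels give none. With the labelled sex as a covariate, limma called 0 genes under either reading. The residual spread of each such fit was the genotype difference under the other reading alone. With the mean of all probe sets, 14 members were detected, 2 were 2-fold higher in 10d, and the signalling genes gave 3 higher, 2 lower and 5 with a 4-fold range. Without probe sets whose suffix marks several transcripts or possible cross-hybridization, 18 members were detected and 4 were 2-fold higher in 10d. With each array centred on its median, which shifts 10d by 0.19 against the other lines on the log2 scale, 1 member was 2-fold lower in 10d. The medians, 7 in 10d and 8 in the other lines, lay at the smallest step of the whole-number values. At 1.5-fold 4 members were lower in 10d, and 11 signalling genes were higher and 12 lower. At 3-fold 2 members were higher and 1 lower, and 4 signalling genes were higher and 1 lower. A range of 2-fold was found for 13 members and 24 signalling genes, and of 8-fold for 4 and 1. A detection level of 64 left 5 signalling genes with a 4-fold range. As labelled, limma called 8 genes with the mean of all probe sets, 4 with median centring and 232 with no filter on dim genes, and as in the article 49 with no filter. Of the members, these included 3 (Ccl11, Cxcl16 and Il10ra), at 13 or less in every line and only as labelled with no filter. Of the 17 settings, only those that changed the probe sets, the normalization or the detection level bear on the fold or range of a single gene. Under these, the differences of 10d and 9v moved by over 1.5-fold in 9 of 18 members and the ranges in 15 of 22. The moves came with the mean of all probe sets or another detection level. None of the differences of 10d and 9v that had reached 2-fold turned its sign. Of 626 alternative limma differences of the 22 detected members, 44 had the opposite sign, 37 of them with a line left out. The lowest limma adjusted p among these 22 was 0.141, for Il17ra as labelled with no filter on dim genes. The sign turned for Mif in the article's reading (-0.0016 with quantile normalization, -0.016 with cyclic loess) and, as labelled, for Il10rb (0.057 with the mean of all probe sets, 0.023 with median centring), Il1r1 (0.053 with median centring), Il3ra (-0.26) and Il17rd (0.16), the last 2 with values raised to the detection level. With each line left out in turn, the range crossed 0 as labelled for Il10rb (-0.17 to 0.020), Il6st (-0.39 to 1.36), Osmr (-0.58 to 1.97), Cxcl15 (-0.56 to 0.23), Il33 (-0.71 to 3.56), Il17rc (-1.12 to 0.33), Il16 (-0.00080 to 1.32), Ccl6 (-6.69 to 0.43), Il3ra (-0.76 to 1.16), Il1r1 (-0.15 to 0.061), Il17d (-0.25 to 1.73) and Il17rd (-1.39 to 1.13). It did so in the article's reading for Mif (-0.23 to 0.25), Il1rap (-0.40 to 1.29), Il6st (-0.72 to 1.25), Il18 (-0.10 to 0.20), Il17ra (-1.55 to 0.99), Cxcr3 (-2.80 to 1.66), Il17rc (-1.01 to 0.65), Ccl25 (-1.65 to 1.17), Cxcl10 (-3.72 to 0.51), Il17d (-1.56 to 0.76), Il4ra (-0.46 to 0.89) and Il17rd (-1.76 to 0.020). Leaving out each line gave 0 limma calls under either reading, the lone line of a side being assumed to vary like the others. With 1 array a line, a difference between lines and one between arrays cannot be told apart.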
